A study of Mus musculus with 8 samples.

Results

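Interferon-gamma inducible GTPases were examined in bulk RNA-seq of splenic B cells from 8 diseased mice. The 10 genes, of 24902 gene symbols in the count matrix, were chosen by symbol from the IRG and GBP families, after Tgtp1 had been noticed as low in the Eµ-TCL1 library. IRG stands for immunity-related GTPase and covers Tgtp1, Tgtp2, Iigp1, Irgm1, Irgm2 and Igtp, and GBP stands for guanylate-binding protein and covers Gbp2, Gbp3, Gbp7 and Gbp9. Because that library entered the choice, every value set against it is given as a description, without a test. Of the 10 genes, 9 had a value in every library and passed the expression filter, and Iigp1, which had no value in the Eµ-TCL1 library, was tested in a separate fit of the other 7 mice.

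The mice were C57BL/6N and were taken at early removal criteria (ERC), when clinical decline called for euthanasia, and their ages were not given. The 4 Eµ-PRMT5 mice carried human PRMT5 driven in B cells by a VH promoter and the Eµ enhancer of the IgH locus, the 3 Eµ-PRMT5/TCL1 mice carried the TCL1 oncogene as well, and the Eµ-TCL1 group was 1 mouse with TCL1 alone. All 8 mice therefore carried at least 1 transgene, and mice without a transgene were not analysed here. Cells were obtained with a pan-B kit from the spleen. Since a group is a set of mice, p-values measure the spread between mice of a genotype. Counts on genes ranged from 3356297 in the Eµ-TCL1 mouse to 10252426 in Eµ-PRMT5 mouse 4, and levels are given as CPM, counts scaled by library size and TMM factor. The markers Cd79a and Cd79b were counted in all 8 libraries, but the summed CPM of 8 B cell markers was 2089 in Eµ-PRMT5 mouse 4, 4471 to 7295 in mice 1 to 3 of that genotype, 3871 to 9220 in Eµ-PRMT5/TCL1 mice and 5413 in the Eµ-TCL1 mouse. In a bulk isolate, fewer cells of a type and less RNA per cell cannot be told apart.

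IRG and GBP proteins are large GTPases of cell-autonomous immunity. Interferon-gamma binds its receptor, the kinases JAK1 and JAK2 pass the signal on, and target promoters respond through gamma-activated sites (GAS) and through interferon-stimulated response elements (ISRE), which IRF1 can bind. In mouse cells the effector IRGs coat and disrupt the vacuoles of intracellular parasites and bacteria, regulator IRGs keep the effectors inactive on the cell's own membranes, and GBPs assemble on vacuoles and on bacteria.

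Sequence upstream of the members is shown because the family is known for its response to interferon through these 2 motifs. RefSeq promoter windows (GRCm38.p6), from 250 bases before to 50 bases after each annotated start, were held for 8 members, namely Tgtp1, Tgtp2, Igtp, Irgm1, Irgm2, Gbp2, Gbp3 and Gbp7. The letters TTCNNNGAA (GAS, its own reverse complement) and GAAANNGAAA (ISRE) were searched on both strands. Each excerpt runs in the direction of the gene with 15 bases on either side of the matches, ends before the start, and has the matched letters in capitals.

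Tgtp1 (chr11:48992299-48992349, minus strand): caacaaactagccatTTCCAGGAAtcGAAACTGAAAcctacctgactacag

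Tgtp2 (chr11:49064258-49064308, minus strand): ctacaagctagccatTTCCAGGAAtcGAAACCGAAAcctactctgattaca

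Igtp (chr11:58199496-58199546, plus strand): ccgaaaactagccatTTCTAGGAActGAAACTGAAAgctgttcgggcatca

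Irgm2 (chr11:58214887-58214937, plus strand): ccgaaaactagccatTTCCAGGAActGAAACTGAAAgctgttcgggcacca

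Irgm1 (chr11:48871421-48871465, minus strand): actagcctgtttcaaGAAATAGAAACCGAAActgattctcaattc

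Gbp2 (chr3:142620589-142620628, plus strand): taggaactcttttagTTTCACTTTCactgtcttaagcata

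Gbp3 (chr3:142559984-142560029, plus strand): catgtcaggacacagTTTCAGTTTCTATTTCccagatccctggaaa

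Gbp7 (chr3:142530215-142530307, plus strand): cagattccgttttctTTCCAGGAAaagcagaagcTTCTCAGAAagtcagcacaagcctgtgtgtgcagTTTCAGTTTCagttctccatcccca

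An ISRE match was present in all 8 of these members, in 1 of the 2 windows of Gbp3, against 3.44% of 32851 promoter windows of the same length. A GAS match was present in 5 of the 8, against 8.3% of all windows, and both motifs were present in those same 5, against 0.454%. In Tgtp1, Tgtp2, Igtp and Irgm2 the GAS match was followed 2 bases later by an ISRE match on the same strand, whereas the ISRE letters of the 3 Gbp genes lay on the opposite strand. The paired ISRE matches of Irgm1 and of Gbp3 overlap each other. Over the 51 bases shown, Igtp and Irgm2 shared 49 and Tgtp1 and Tgtp2 shared 39. The letters describe these windows and were not tested for binding.

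**Figure D1:**
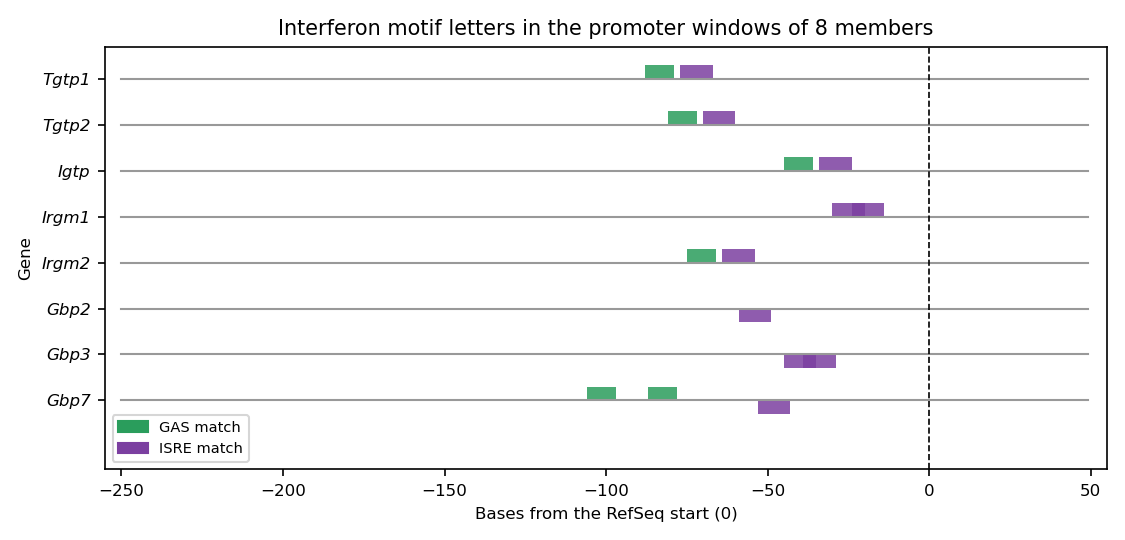
Positions of GAS and ISRE letter matches in the RefSeq promoter windows of 8 members, in bases from the annotated start at 0; boxes above a line are matches on the gene's strand and boxes below it on the opposite strand (the GAS letters read the same on both). All matches lie before the start, and the 4 genes Tgtp1, Tgtp2, Igtp and Irgm2 hold a GAS match followed by an ISRE match 2 bases later.

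Among the effectors, Tgtp1 (ENSMUSG00000078922.9, chromosome 11, 48985327 to 48994172, GRCm38, minus strand) encodes a T cell-specific GTPase, also known as Irgb6, that loads onto parasite vacuoles. Its CPM, with mice given in the order of their numbers here and in the other genes, was 42.6, 17.7, 19.6 and 209.9 for Eµ-PRMT5, 111.2, 54.0 and 30.3 for Eµ-PRMT5/TCL1, and 4.33 for Eµ-TCL1, where it rested on 16 counts. The Eµ-TCL1 mouse lay below the other 7 mice, and the ranges of the replicated groups overlapped. The exact 95% interval of the Eµ-TCL1 value was 2.47 to 7.02 CPM, for counting error only. The mean of Eµ-PRMT5 mice (72.5 ± 92.3 CPM, SD, n = 4) was 16.7 times and that of Eµ-PRMT5/TCL1 mice (65.2 ± 41.6, n = 3) 15.1 times the Eµ-TCL1 value, which comes from 1 mouse. Without Eµ-PRMT5 mouse 4 the mean of that genotype was 26.7 ± 13.9 CPM (n = 3), 6.16 times the Eµ-TCL1 value.

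Tgtp2 (ENSMUSG00000078921.3, chromosome 11, 49057194 to 49064206, minus strand) is the close paralog of Tgtp1. Its CPM was 94.8, 38.5, 41.5 and 238.0 in Eµ-PRMT5 mice, 201.5, 110.8 and 71.1 in Eµ-PRMT5/TCL1 mice and 18.4 in the Eµ-TCL1 mouse, which placed the 8 mice in the same order as Tgtp1. Of the 150-base stretches in Tgtp1 transcripts, 62.5% also occur in Tgtp2, and 68.4% of those of Tgtp2 occur in Tgtp1, so the split of reads between the paralogs depends on how shared reads were counted. How reads that fit both genes were assigned was not stated for these libraries.

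Tgtp1 held 31.02%, 31.5%, 32.1% and 46.9% of the counts of the pair in Eµ-PRMT5 mice 1 to 4, and 35.6%, 32.8% and 29.8% in Eµ-PRMT5/TCL1 mice 1 to 3. It held 19.0% in the Eµ-TCL1 mouse, with 16 of 84 counts and an exact 95% interval of 11.3 to 29.1%. The share was highest in Eµ-PRMT5 mouse 4 (interval 45.3 to 48.4%). The intervals cover counting error within a library and give no test between mice. These shares are taken within a library, so scaling between libraries does not enter them.

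**Figure D2:**
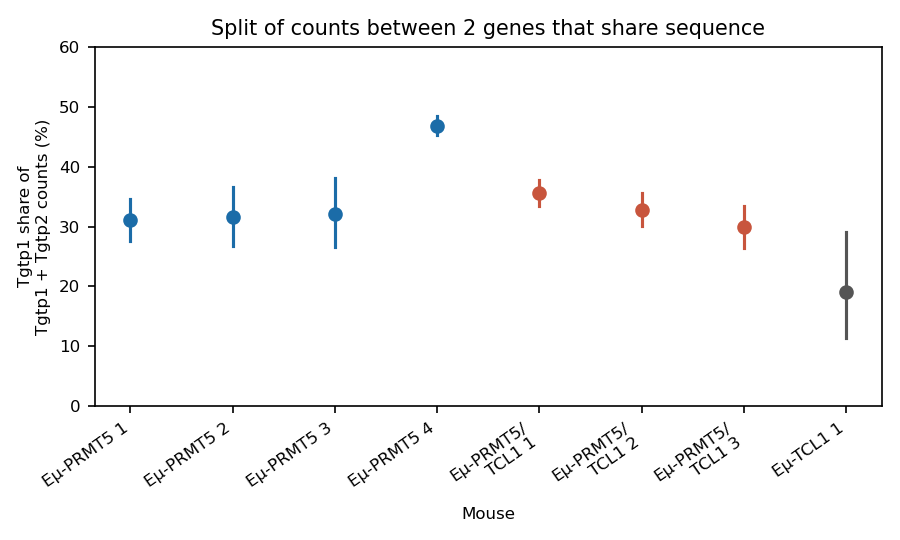
Tgtp1 counts as a percentage of Tgtp1 plus Tgtp2 counts in each of the 8 mice (points), with exact 95% binomial intervals (lines). The share was 46.9% in Eµ-PRMT5 mouse 4, 19.0% in the Eµ-TCL1 mouse and between 29.8% and 35.6% in the remaining mice.

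Iigp1, also known as Irga6, is the best studied effector, which coats vacuoles of Toxoplasma. It had 9, 12, 27 and 2287 counts in Eµ-PRMT5 mice 1 to 4 and 686, 214 and 34 counts in Eµ-PRMT5/TCL1 mice 1 to 3. In CPM these were 1.83, 1.90, 6.15 and 263.7, then 112.5, 30.6 and 5.22, and the ratio of the highest to the lowest mouse was wider than for any other member within both genotypes. The matrix had no value for Iigp1 in the Eµ-TCL1 mouse, and what a missing value means was not stated.

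Among the regulators, Igtp (Irgm3; ENSMUSG00000078853.8, chromosome 11, 58199556 to 58207591, plus strand) acts on endoplasmic reticulum and lipid droplet membranes. Its CPM was 74.5, 55.6, 139.7 and 515.2 in Eµ-PRMT5 mice, 229.4, 255.6 and 246.9 in Eµ-PRMT5/TCL1 mice and 140.3 in the Eµ-TCL1 mouse. The 3 Eµ-PRMT5/TCL1 mice were close together (244.0 ± 13.4, SD, n = 3), while Eµ-PRMT5 mice were not (196.2 ± 215.7, n = 4), and the Eµ-TCL1 mouse was above 3 of the 4 Eµ-PRMT5 mice.

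Irgm1 (chromosome 11, 48861968 to 48871683, minus strand), a regulator at lysosomal and Golgi membranes that also affects autophagy, had 71.0, 109.1, 86.9 and 257.5 CPM in Eµ-PRMT5 mice. It had 163.0, 166.6 and 73.9 CPM in Eµ-PRMT5/TCL1 mice, and the Eµ-TCL1 mouse, at 43.5 CPM, was the lowest of the 8. Irgm2 (chromosome 11, 58199618 to 58222782, plus strand), a Golgi-associated regulator, had 10.1, 17.4, 31.5 and 56.8 CPM in Eµ-PRMT5 mice, 35.1, 54.2 and 36.1 in Eµ-PRMT5/TCL1 mice and 26.2 in the Eµ-TCL1 mouse. In both genes the replicated groups overlapped. The annotations of Igtp and Irgm2 share 162 exon bases on the same strand, and 0.739% of the 150-base stretches of Igtp also occur in Irgm2.

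Gbp2 (ENSMUSG00000028270.12, chromosome 3, 142620602 to 142638008, plus strand) is a GBP that is recruited to parasite vacuoles and Gram-negative bacteria. Its CPM was 78.7, 36.9, 122.4 and 544.6 in Eµ-PRMT5 mice, 597.6, 309.6 and 214.7 in Eµ-PRMT5/TCL1 mice and 67.9 in the Eµ-TCL1 mouse. All 3 Eµ-PRMT5/TCL1 values exceeded those of Eµ-PRMT5 mice 1 to 3 but only 1 exceeded that of mouse 4.

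Gbp3 (ENSMUSG00000028268.14, chromosome 3, 142560026 to 142573209, plus strand), from the same cluster as Gbp2, had 87.7, 83.9, 90.7 and 151.0 CPM in Eµ-PRMT5 mice. It had 209.7, 173.9 and 184.6 CPM in Eµ-PRMT5/TCL1 mice and 86.5 in the Eµ-TCL1 mouse. It was the only member whose replicated groups did not overlap, and in 1.35% of the 13173 genes tested all 3 Eµ-PRMT5/TCL1 mice lay above all 4 Eµ-PRMT5 mice.

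Gbp7 (chromosome 3, 142530342 to 142550149, plus strand), a member of the same cluster linked to vacuole recruitment, had 149.6, 45.3, 143.6 and 182.8 CPM in Eµ-PRMT5 mice, 241.8, 162.9 and 176.6 in Eµ-PRMT5/TCL1 mice and 83.3 in the Eµ-TCL1 mouse. Its exons overlap 637 bases of a processed pseudogene, Gm43802, on the same strand, with which 8.77% of its 150-base stretches are shared. Gbp9 (chromosome 5, 105077630 to 105139539, minus strand), from the second GBP cluster, had 36.7, 15.4, 44.9 and 70.4 CPM in Eµ-PRMT5 mice, 33.8, 49.2 and 47.2 in Eµ-PRMT5/TCL1 mice and 21.6 in the Eµ-TCL1 mouse. Both genes were lowest in Eµ-PRMT5 mouse 2, and their replicated groups overlapped.

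**Figure D3:**
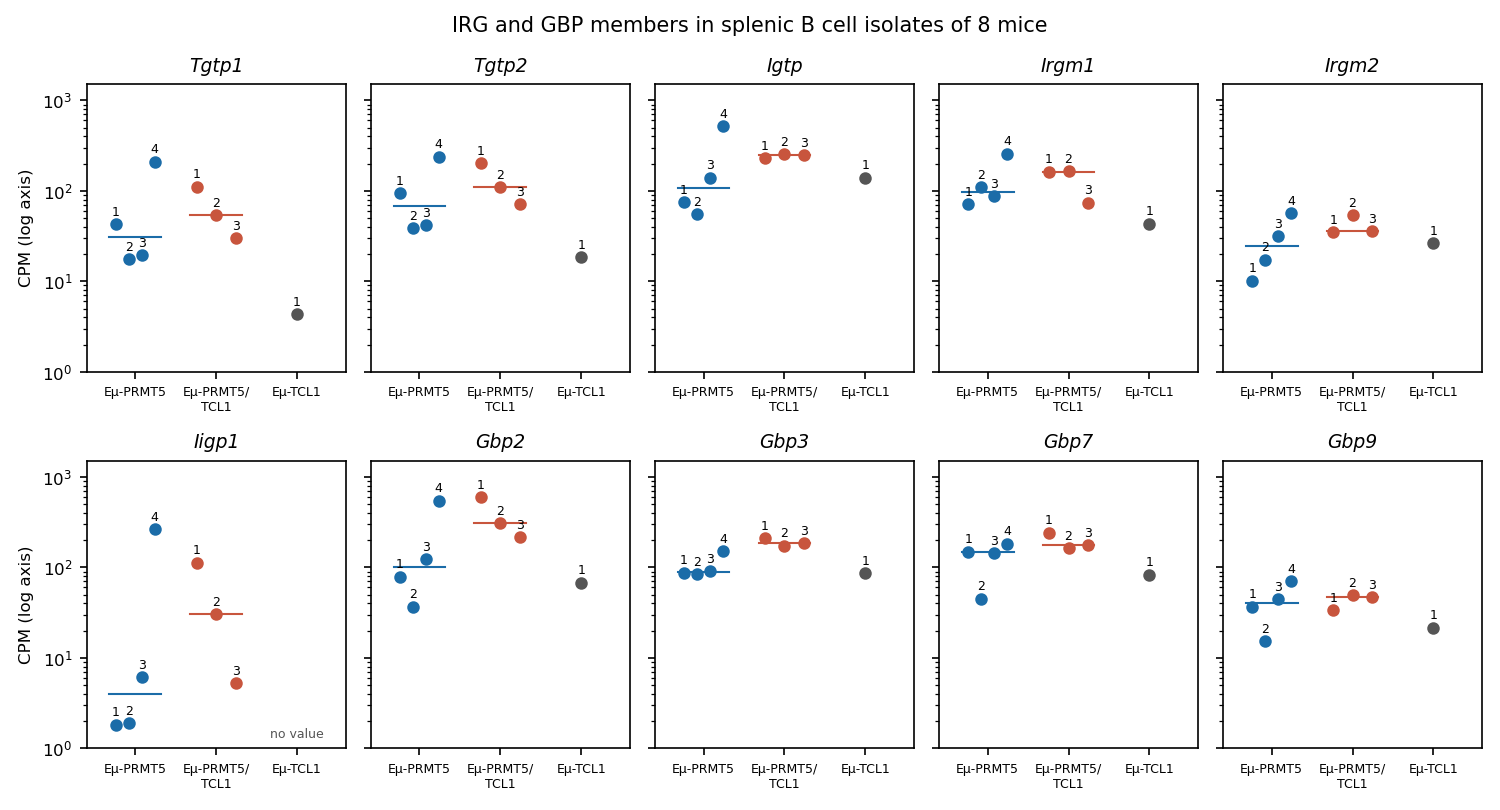
TMM-normalized CPM (log axis) of the 10 members in each mouse; points are mice with their replicate number, lines are medians of the groups with more than 1 mouse, and Iigp1 has no value in the Eµ-TCL1 mouse. Eµ-PRMT5 mouse 4 lies above the other 3 Eµ-PRMT5 mice for every member, from 1.22 times the next for Gbp7 to 42.8 times for Iigp1.

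Wide differences in the family lay between mice of the same genotype. Eµ-PRMT5 mouse 4 exceeded the other 3 Eµ-PRMT5 mice in all 10 members, including all 9 tested, against 27.8% of the 13173 genes tested. It was 42.8 times the highest of them for Iigp1, 4.92 times for Tgtp1, 4.45 times for Gbp2, 3.69 times for Igtp and 1.22 to 2.51 times for the other 6. Of the 9 tested members, 6 were highest of all 8 mice in this mouse (20.1% of genes tested) and the other 3, Gbp2, Gbp3 and Gbp7, in Eµ-PRMT5/TCL1 mouse 1. The median range of a tested member over the 8 mice was 2.54 on the log2(CPM + 1) scale, against 1.70 over all genes tested. This mouse was singled out after its values were seen.

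Markers of other cells were also high in some of these mice. The 8 neutrophil markers summed to 5219 CPM in Eµ-PRMT5 mouse 4 and 8997 in Eµ-PRMT5/TCL1 mouse 1, compared with 420.6 to 2654 in the remaining Eµ-PRMT5 mice, 5056 and 642.5 in the other Eµ-PRMT5/TCL1 mice and 586.7 in the Eµ-TCL1 mouse. The 8 macrophage markers summed to 921.0 and 793.3 CPM in the same pair of mice, against 145.9 to 536.0 in the other 6. They did not all follow the sum. C1qb had 290.1 CPM per kb of exon in Eµ-PRMT5 mouse 4 and 27.3 in Eµ-PRMT5/TCL1 mouse 1. Adgre1 had 5.41 and 16.2 there, against 22.4 in Eµ-PRMT5 mouse 2 and 21.7 in Eµ-PRMT5/TCL1 mouse 3. The 8 erythroid markers summed to 380.2 and 349.4 CPM, against 25.96 to 102.5. None of these 24 markers was listed at 0, although 5 macrophage and 6 erythroid values were missing. A missing value adds nothing to a sum, so such sums can be too low. C1qa, C1qb and C1qc had no value in Eµ-PRMT5 mouse 1, which had the macrophage sum of 145.9 CPM. Plasma cell markers were low in both mice, with a sum of 688.7 CPM in Eµ-PRMT5 mouse 4 and 637.3 in Eµ-PRMT5/TCL1 mouse 1, compared with 1586 to 5760 in the remaining Eµ-PRMT5 mice, 517.7 and 2819 in the other Eµ-PRMT5/TCL1 mice and 2068 in the Eµ-TCL1 mouse. T cell markers (214.4 to 757.1 CPM over all mice) and NK cell markers (25.5 to 398.9) were highest in Eµ-PRMT5 mouse 3. In mouse 4 of that genotype they summed to 329.0 and 45.3 CPM. Per kb of exon, Lck was highest in Eµ-PRMT5/TCL1 mouse 2 (227.6 CPM), where Cd3e had 1.58. In Eµ-PRMT5 mouse 4, Lck had 73.9, Cd3g was the highest of the 8 mice (29.1) and Cd8b1 the lowest (1.24). The sum therefore does not stand for each T cell marker. Dendritic cell markers ranged from 80.4 to 148.9 CPM, and endothelial markers from 57.3 CPM, in Eµ-PRMT5 mouse 4, to 268.1. Values were also missing for T cell (4), NK cell (8), dendritic (8) and endothelial (5) markers. Xcr1, Clec9a and Siglech had no value in Eµ-PRMT5 mouse 1, at the low end of the dendritic range. The part of other cells in the family's levels was not tested.

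**Figure D4:**
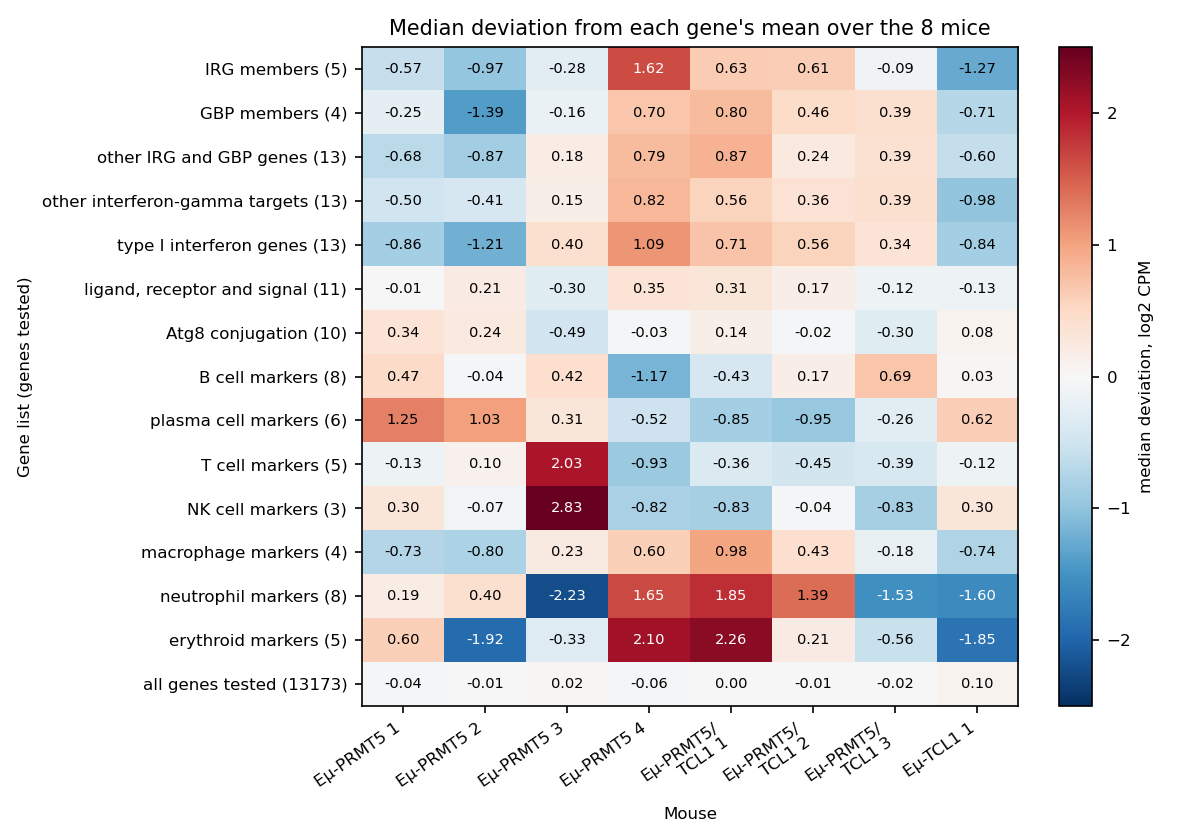
Median over each gene list (rows, number of genes tested in brackets) of the deviation of log2 CPM from a gene's own mean over the 8 mice, for each mouse (columns). The IRG members stood at 1.62 in Eµ-PRMT5 mouse 4 and -1.27 in the Eµ-TCL1 mouse. Without Tgtp1 and Tgtp2, the 7 other tested members of both families stood at 0.95 and -0.68. Scaling keeps the median of all 13173 genes near 0, here between -0.06 and 0.10. The members were chosen with the Eµ-TCL1 library in view, and mouse 4 was singled out after its values were seen.

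The comparison of Eµ-PRMT5/TCL1 with Eµ-PRMT5 mice asks how the family differs when TCL1 is added to PRMT5. With edgeR's quasi-likelihood test, no member was called at an adjusted p under 0.05 (0% of the 13173 genes tested were called), and 1 member, Gbp3, had an unadjusted p under 0.05. Unadjusted, 0.957% of genes were past that limit as higher and 1.21% as lower. DESeq2 also called 0 members and had 1 at an unadjusted p under 0.05, while it called 4 genes in all. For Gbp3 the log2 fold change was 0.87 (SE 0.324), with an unadjusted p of 0.0193 and an adjusted p of 1.

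The other 8 tested members had adjusted p-values of 1 by edgeR and intervals that included 0. Gbp2 had a log2 fold change of 0.93 (95% interval -0.66 to 2.53), Gbp7 of 0.57 (-0.36 to 1.505) and Gbp9 of 0.05 (-0.96 to 1.06). Irgm2 had 0.53 (-0.62 to 1.67), Igtp 0.31 (-1.07 to 1.69), Tgtp2 0.31 (-0.9997 to 1.61), Irgm1 0.04 (-0.9963 to 1.07) and Tgtp1 -0.16 (-1.85 to 1.54). The intervals therefore hold changes of more than 1 on the log2 scale in at least 1 direction for each of these 8 genes. Iigp1, in the fit of the 7 mice with a value, had -0.48 (-3.65 to 2.68) and an adjusted p of 1 by edgeR. The median of the 9 was 0.31, against -0.09 over all genes tested.

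This comparison depended on Eµ-PRMT5 mouse 4. Without it, edgeR still called no member (0% of 13156 genes), but 6 of 9 members had an unadjusted p under 0.05, all as higher in Eµ-PRMT5/TCL1 mice, against 2.98% of genes as higher and 2.8% as lower. The 6 were Gbp2 (log2 fold change 2.24), Igtp (1.44), Tgtp1 (1.29), Tgtp2 (1.13), Gbp3 (1.11) and Irgm2 (1.09). Mouse 4 was the highest of its genotype for every member, so its removal could only raise their fold changes. It lay above Eµ-PRMT5 mice 1 to 3 in 27.8% of all genes tested, so shares over all genes are no like yardstick. The members also move together and mouse 4 was singled out after its values were seen, so nothing is concluded from these counts. The median of the 9 became 1.11, against -0.07 over all genes. In the fit of 7 mice, Iigp1 had 3.92 (SE 0.971) without this mouse, with an unadjusted p of 0.00196 and an adjusted p of 0.531 by edgeR. The smallest adjusted p among the 6 was 0.467, for Gbp2, and over 16 alternatives the adjusted p of Gbp2 ranged from 0.152 to 1. In CPM, all 3 Eµ-PRMT5/TCL1 mice lay above Eµ-PRMT5 mice 1 to 3 for 5 of the 9 members (Igtp, Irgm2, Gbp2, Gbp3 and Gbp7), as for 5.5% of genes tested. Leaving out Eµ-PRMT5 mouse 2 in its place gave a median of 0.03, leaving out mouse 3 gave 0.18, and leaving out Eµ-PRMT5/TCL1 mouse 3 gave 0.60.

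Markers of other cells are given for that same fit without Eµ-PRMT5 mouse 4, in which edgeR called none. At an unadjusted p under 0.05, 3 of 8 neutrophil markers were higher in Eµ-PRMT5/TCL1 mice, namely the granule genes Prtn3 (log2 fold change 3.66), Mpo (3.17) and Elane (2.94). So were 2 of 4 macrophage markers, Csf1r (1.75) and Cd68 (1.18), 1 of 5 erythroid markers, Hba-a1 (1.68), and 1 of 4 dendritic markers, Bst2 (0.86). Bst2 is also counted in the list of type I interferon genes. Of the 4 dendritic markers, 2 had fold changes above 0, and Zbtb46 (-0.96) and Flt3 (-0.16) lay below it. Lower at an unadjusted p under 0.05 by edgeR were 3 of 6 plasma cell markers, Sdc1 (-2.78), Xbp1 (-1.57) and Irf4 (-1.04), 3 of 5 T cell markers, among them Cd3d (-2.89), and 1 of 3 NK cell markers, Prf1 (-2.87). The remaining T cell markers tested, Cd3g (0.31) and Lck (0.42), had fold changes above 0. None of the 8 B cell markers passed that limit. With all mice in the fit, Mpo was past it as higher, and 2 plasma cell, 2 T cell and 1 NK cell markers as lower. The part of these cells in the members' fold changes was not tested.

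**Figure D5:**
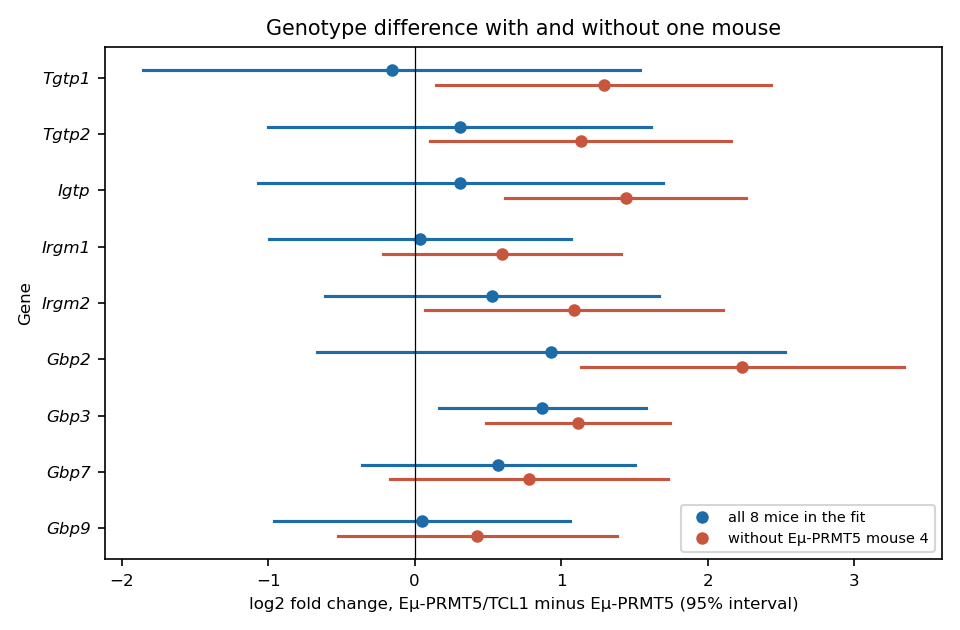
Log2 fold change of the 9 tested members, Eµ-PRMT5/TCL1 minus Eµ-PRMT5, from edgeR with 95% intervals, with all 8 mice in the fit (blue) and without Eµ-PRMT5 mouse 4 (red). Only Gbp3 has an interval above 0 with all mice, 6 members do without that mouse, and Tgtp1 changes sign from -0.16 to 1.29.

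Values set beside the Eµ-TCL1 mouse rest on a single library. Tgtp1, Tgtp2 and Irgm1 were lowest of the 8 mice there, 3 of the 9 members with a value, against 14.2% of genes tested. Without Eµ-PRMT5 mouse 2, which was the lowest mouse for 5 members, the count was 7. The share over all genes was not computed for that setting, so the 14.2% does not apply to it. Tgtp1, Tgtp2 and Irgm1 were also below all 4 Eµ-PRMT5 mice (17.9% of genes tested), and all 9 were below all 3 Eµ-PRMT5/TCL1 mice (27.6% of genes tested). The Eµ-PRMT5 mean was 5.61 times the Eµ-TCL1 value for Tgtp2, 3.01 times for Irgm1, 2.88 times for Gbp2 and 1.10 to 1.94 times for Irgm2, Gbp3, Igtp, Gbp7 and Gbp9. Without Eµ-PRMT5 mouse 4 these ratios were 3.17 for Tgtp2, 2.04 for Irgm1 and 1.17 for Gbp2, and those of Igtp (0.641) and Irgm2 (0.750) fell under 1. The Eµ-PRMT5/TCL1 mean was 6.95 times for Tgtp2, 5.51 times for Gbp2, 3.09 times for Irgm1 and 1.59 to 2.33 times for the other 5. Since the genes were chosen with this library in view, nothing is read from these counts.

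Levels of different genes were compared per kb of exon. Over the mice, the median was 91.4 CPM per kb for Igtp, 67.0 for Gbp2, 37.0 for Gbp3, 28.2 for Tgtp2, 27.8 for Gbp7, 16.9 for Irgm1, 11.4 for Tgtp1, 9.02 for Irgm2, 7.89 for Gbp9 and, over 7 mice, 1.06 for Iigp1. The ranges of each neighbouring pair in this order overlapped. The order also differed between mice: in Eµ-PRMT5/TCL1 mouse 1, Gbp2 had 237.5 CPM per kb and Igtp 113.4, and in Eµ-PRMT5 mouse 4, Iigp1 had 45.3 and Irgm1 44.3. The places of Tgtp1 and Tgtp2 depend on how their shared reads were split.

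The family holds further genes that were not chosen, and 13 of 16 listed ones were tested. None of the 13 was called by edgeR or had an unadjusted p under 0.05 in Eµ-PRMT5/TCL1 against Eµ-PRMT5 mice, and DESeq2 called 0 of the 12 it tested. Their median log2 fold change was 0.47, against -0.09 over all genes tested. Of the 13, 12 were above 0, but 9930111J21Rik2 (0.007), Gbp4 (0.04) and Gm4951 (0.06) lay close to it. The share of all genes above 0 was not computed, so nothing is read from this count. Gbp6, which like Gbp9 is in the second cluster, had 5.89, 2.06, 2.96 and 80.3 CPM in Eµ-PRMT5 mice, 60.7, 30.6 and 21.5 in Eµ-PRMT5/TCL1 mice and 1.35 in the Eµ-TCL1 mouse. Gbp10 had 1.83 to 22.4 CPM in Eµ-PRMT5 mice, 19.6 to 22.4 in Eµ-PRMT5/TCL1 mice and 0.811 in the Eµ-TCL1 mouse. In both, Eµ-PRMT5 mouse 4 lay above the other mice of its genotype. Gbp5, which takes part in inflammasome activation, had 8.12, 5.54, 2.96 and 31.1 CPM, then 46.4, 28.2 and 12.0, then 8.38. Without Eµ-PRMT5 mouse 4, Gbp5, Gbp6, Gbp10 and Gm4951 had an unadjusted p under 0.05 by edgeR, all as higher, and none was called. In that fit 2.98% of all genes were past this limit as higher, and mouse 4 was singled out after its values were seen. Irgq, a divergent relative of the IRG genes, had 13.9 to 25.5 CPM in Eµ-PRMT5 mice and was highest, at 55.4, in the Eµ-TCL1 mouse.

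Upstream, the ligand gene Ifng had 1 to 6 counts in the 7 libraries with a value and none recorded in the Eµ-TCL1 mouse, and was not tested. Of 11 tested genes for the receptor and its signalling, none was called, none had an unadjusted p under 0.05 by edgeR, and DESeq2 called 0. Their median log2 fold change was 0.14. Irf1, which binds ISRE letters, had 121.0 to 247.7 CPM in Eµ-PRMT5 mice, 176.0 to 211.2 in Eµ-PRMT5/TCL1 mice and 54.3 in the Eµ-TCL1 mouse, below the other 7 mice. The receptor gene Ifngr1 had 120.8 to 170.9 CPM in Eµ-PRMT5 mice, 71.0 to 170.2 in Eµ-PRMT5/TCL1 mice and 167.1 in the Eµ-TCL1 mouse. Ifngr2, for the second receptor chain, had 65.9 to 209.0, then 63.8 to 266.4, then 48.1 CPM.

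Further interferon-gamma targets stood 0.82 above their own mean (median, log2 CPM) in Eµ-PRMT5 mouse 4 and at -0.98 in the Eµ-TCL1 mouse. Of 13 tested interferon-gamma targets, none was called or had an unadjusted p under 0.05 by edgeR, and DESeq2 called 0, with a median log2 fold change of 0.34. Psmb8, an immunoproteasome subunit, had 404.1, 350.8, 491.0 and 1020 CPM in Eµ-PRMT5 mice, 945.0, 712.8 and 825.3 in Eµ-PRMT5/TCL1 mice and 289.8 in the Eµ-TCL1 mouse. Tap1, of the peptide transporter, had 277.4 to 740.2, then 504.0 to 786.1, then 220.1 CPM. Without Eµ-PRMT5 mouse 4, 5 of these 13 genes (Psmb8, Psmb9, Psmb10, Tap1 and Serpina3g) and 5 of 13 type I interferon genes had an unadjusted p under 0.05 by edgeR, all as higher. In that fit 2.98% of all genes were past this limit as higher, and mouse 4 was singled out after its values were seen. Psmb10 and Serpina3g are named after their values were seen. The type I list had a median log2 fold change of 0.55 with all mice, and none of its genes was called by edgeR or DESeq2 or had an unadjusted p under 0.05 by edgeR.

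Genes for Atg8 conjugation, which IRG and GBP proteins need to reach parasite vacuoles, varied less between mice. None of 10 was called by edgeR or DESeq2 or had an unadjusted p under 0.05 by edgeR, and their median log2 fold change was -0.14. Their median range over the 8 mice was 1.15 on the log2(CPM + 1) scale, against 2.54 for the members and 1.70 for all genes tested. Map1lc3b, one of the Atg8 proteins, had 309.8 to 819.5 CPM in Eµ-PRMT5 mice and 763.0 in the Eµ-TCL1 mouse. Of the inflammasome genes linked to GBPs, 5 of 6 were tested and none was called by edgeR or DESeq2 or had an unadjusted p under 0.05 by edgeR. Casp1, the inflammasome protease, had 57.0 to 110.7 CPM in Eµ-PRMT5 mice, 53.0 to 79.5 in Eµ-PRMT5/TCL1 mice and 6.22 in the Eµ-TCL1 mouse.

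The genes whose pattern was most like that of Tgtp1 were found over the 8 mice by the root mean square difference of log2 CPM after each gene's mean was taken off. Tgtp2 was nearest, at 0.467, followed outside the family by Hp (0.555), Hba-a2 (0.566), Hba-a1 (0.613), Ifi205 (0.618), Hbb-bt (0.624), Mcemp1 (0.696), Serpina3f (0.734), Kcnn4 (0.746), Ms4a3 (0.761) and Cd302 (0.767), while the median over 13172 genes was 1.71. The place of Tgtp2 depends on how the reads it shares with Tgtp1 were counted. Within the family, Gbp6 ranked 38, Gbp2 58, Irgm1 73 and Ifi47 140. Igtp, at rank 944 (1.27), and Irgm2, at rank 2621 (1.44), lay farther but under the median over all genes. The differences include the Eµ-TCL1 library, which entered the choice of the members. Hp, the gene of haptoglobin, had 49.01 to 67.8 CPM in Eµ-PRMT5 mice 1 to 3, 546.2 in mouse 4, 339.4, 153.1 and 62.9 in Eµ-PRMT5/TCL1 mice and 30.6 in the Eµ-TCL1 mouse. Hba-a1, Hba-a2 and Hbb-bt are globin genes of red cells and are among the erythroid markers that stood out in the same mice.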

How the data were processed

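RNA from pan-B cells of the spleen was measured in 8 mice. The authors deposited 1 table of read counts by gene symbol, which they had not normalized. By the methods, libraries were preamplified from low input and analysed with the CLEAR workflow and DESeq2, whereas the labels describe a stranded mRNA kit at greater depth. Per the submitters' processing notes, Subread, featureCounts and DESeq2 1.20.0 were used on GRCm38. Which aligner, annotation and strand setting applied to these libraries is not given in the sources used here, nor is the meaning of missing values. Genes with a missing value were therefore left out of the main fit, and NA was read as 0 there only as an alternative. Sums of marker CPM skip missing values, which has the same effect as 0. Reads without molecular identifiers mean that intervals cover counting error only.

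Groups follow the genotype in the labels. Symbols counted in every library (14072) were filtered by expression (13173 genes), scaled by TMM and fitted with edgeR 4.0.16 in R 4.3.3 as 1 model over 3 groups, with the quasi-likelihood test, Benjamini-Hochberg adjustment and a threshold of 0.05. Iigp1 was fitted alike in the 7 mice with a value (12658 genes), a fit added after the data were seen. DESeq2 1.42.0, other scalings, other filters, a fold change over 4, NA counted as 0, only the compared groups, the replicate block and each mouse left out were alternatives. The code was tested on simulated data. Exact binomial intervals (95%) were computed with scipy 1.17.1. Positions are from GENCODE vM21 and promoters from RefSeq (GRCm38.p6). The text names all members, genes of the family and signalling lists, genes of other lists with an unadjusted p under 0.05 or among the 3 of highest mean CPM, and the 10 genes most like Tgtp1 (prior count 2). The members, lists and tests were chosen with earlier results of these data known.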

Additional observations from a re-analysis of the deposited data

Results flagged for a closer look

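Dixon's outlier rule, which sets the gap to the nearest neighbour against the whole range, was applied to the CPM of the 4 Eµ-PRMT5 mice. It flagged mouse 4 for 4 of the 10 members. These were Iigp1 at 263.7 CPM (0.983 of the range), Gbp3 at 151 CPM (0.898), Tgtp1 at 209.9 CPM (0.87) and Gbp2 at 544.6 CPM (0.832). All 4 flags concern the same mouse, and the members are not independent of each other. The rule would give 0.5 flags by chance if values were normally distributed. It was not applied on a log scale, where the gap below a high value takes up less of the range. The 0.5 is therefore no fair yardstick for these flags.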

How the results depend on the processing

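No member was called at an adjusted p under 0.05 by edgeR or DESeq2 under any alternative, including a fold change over 4, and 130 of 144 values of the 9 members kept direction and side of the threshold. The median log2 fold change of the 9 members, 0.313 with all mice, was 1.13 with the replicate block (mice 1 to 3 of both genotypes), 1.11 in the same 6 mice without the block, an alternative chosen after seeing the data, and 0.0326 to 1.11 with 1 mouse left out in turn. Tgtp1 turned to 1.21 with the replicate block and 1.29 in the same 6 mice without it, and Irgm1 to -0.00115 with NA counted as 0. With 1 mouse left out, Tgtp1 ranged from -0.785 to 1.29, Tgtp2 from -0.184 to 1.13, Irgm1 from -0.168 to 0.595 and Gbp9 from -0.226 to 0.427. For Iigp1, fitted in 7 mice as an alternative chosen after seeing the data, edgeR gave -0.484, DESeq2 -0.496 and NA counted as 0 -0.604, and it ranged from -1.93 to 3.92 with 1 mouse left out, 3.92 being without Eµ-PRMT5 mouse 4 and 0.0639 without Eµ-PRMT5/TCL1 mouse 3.

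Members lowest in the Eµ-TCL1 mouse numbered 3, or 5 with NA counted as 0, where Iigp1 enters as 0 and the scaling changes, and ranged from 3 to 7 with 1 mouse left out, 7 being without Eµ-PRMT5 mouse 2, which was lowest for 5 members.

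Replicate numbers did not pair the mice: same-numbered deviations correlated at -0.0206, 0.154 and 0.16. With the block, 7 members had an unadjusted p under 0.05, against 6 without it, and 495 genes were higher and 331 lower, against 374 and 368. Genes at an unadjusted p under 0.05 numbered 126 higher and 160 lower with all mice and 392 and 368 without Eµ-PRMT5 mouse 4. The Eµ-TCL1 group is 1 mouse, Iigp1 has no value there, and Tgtp1 and Tgtp2 share most of their sequence.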

Other observations

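Gbp2 and Gbp3 lie in the same cluster on chromosome 3, and Gbp2 held 30.5 to 57.4% of the counts of the pair in Eµ-PRMT5 mice 1 to 3, 78.3% in Eµ-PRMT5 mouse 4, 53.8 to 74.0% in Eµ-PRMT5/TCL1 mice and 44.0% in the Eµ-TCL1 mouse. Igtp held 76.1 to 90.1% of the counts of Igtp plus Irgm2 over the 8 mice, which include the mice at both ends of the Tgtp1 range. Tgtp1 counts were 3.0% of Tgtp1 plus Igtp counts in the Eµ-TCL1 mouse (exact 95% interval 1.72 to 4.81%) and 10.9 to 36.4% in the other 7. Igtp and Irgm2 had the most alike of the 4 promoter excerpts of equal length, and how promoter letters relate to levels was not tested.

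Of 7 other family genes with a RefSeq promoter window, 4 held ISRE letters and 2 held GAS letters. In Gbp5 the nearest GAS match lay 52 bases before the start. Ifi47 held neither set of letters in its window, and sequence outside the windows was not searched.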
